A study of Rattus norvegicus with 5 samples.

Results

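Thyrotropin-releasing hormone (TRH) is made from a precursor encoded by *Trh*, and the genes described here are *Trh* itself, its receptor gene *Trhr* and the genes of the enzymes that cut and finish the precursor, *Pcsk1*, *Pcsk2*, *Cpe* and *Pam*. Every probe set to which the platform annotation gives one of these symbols, and no other gene, was taken, without regard to its signal. This gave 15 of the 8740 probe sets analysed, for 5 of the 6 genes, because no probe set carried the symbol *Pcsk1*. *Trh* had 2 probe sets, *Trhr* 3, *Pcsk2* 2, *Cpe* 1 and *Pam* 7. In the rat assembly GRCr8 *Trh* lies on chromosome 4, *Trhr* on 7, *Pcsk1* on 2, *Pcsk2* on 3, *Cpe* on 16 and *Pam* on 9.

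The arrays were Affymetrix rat genome arrays of the U34 set (chip A), on which short oligonucleotides measure labelled RNA, and the RNA came from primary cultures of the hypothalamus of Wistar rat embryos at day 17 (E17). GFP+ cells (2 arrays) had been transfected with polyethylenimine, 24 h after seeding, with a plasmid in which a *Trh* promoter fragment drives green fluorescent protein, and were sorted for fluorescence 48 h later. GFP+/- cells (2 arrays) were transfected with the same plasmid and went through the sorter as a mixture of fluorescent and dark cells, without selection. NT cells (1 array) were not transfected, and the study's methods do not say that the cells used for this RNA passed through the sorter. In differences from NT cells, transfection, passage through the sorter, RNA quality and the lone array cannot be told apart. Rose and fell below mean only higher or lower than on the NT array. The RNA of GFP+ cells was a pool of 6 experiments and that of the other populations a pool of 3. The reporter is transient and driven by a fragment of the *Trh* promoter, so the sort picks cells by reporter activity and not by *Trh* transcript. In RNA of such mixtures, fewer cells of a type and less RNA per cell cannot be told apart.

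The TRH precursor holds several copies of a short peptide flanked by pairs of basic residues. The convertases encoded by *Pcsk1* and *Pcsk2* cut at these pairs, carboxypeptidase E (*Cpe*) trims the basic residues that remain, and peptidylglycine alpha-amidating monooxygenase (*Pam*) turns the terminal glycine into the amide that the mature hormone carries. Glutaminyl cyclase (*Qpct*) closes the first residue into pyroglutamate. The steps take place on the way into dense core granules, and the released peptide acts in the pituitary through *Trhr*, a receptor that couples through Gq to phospholipase C.

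The reporter stands for the promoter of *Trh*, so the 250 bases just before the annotated start of the gene are shown. They are from RefSeq, GRCr8 chr4:126301763-126302012, on the minus strand, written 5′ to 3′ in gene direction, with motif matches in capitals.

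*Trh*: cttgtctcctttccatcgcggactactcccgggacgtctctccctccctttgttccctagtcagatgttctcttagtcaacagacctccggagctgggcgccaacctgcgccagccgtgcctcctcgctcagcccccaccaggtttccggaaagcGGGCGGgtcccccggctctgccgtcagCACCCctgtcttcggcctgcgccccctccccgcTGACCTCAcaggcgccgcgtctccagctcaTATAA

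The stretch is 65.2% G or C. Its last base is position -1, and both strands were searched for 4 motifs, none of which overlapped another. TGACCTCA, a sequence known in *Trh* promoters as a site for CREB and for thyroid hormone receptors, was found once at -35 to -28, and 2.31% of 33469 RefSeq promoter stretches of 250 bases held it. The GC box GGGCGG was at -95 to -90 (30.5% of stretches), the CACCC core, a kind of site that Krüppel-like factors bind, at -68 to -64 (49.2%), and TATAA at -5 to -1 (24%). These matches are a description of the sequence. Their positions count back from the annotated start, which was not compared with a measured start of transcription. The plasmid's own fragment is given by the study as -776 to +84, and its numbering was not tied to this start site.

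The values are MAS 5.0 signals, a linear brightness with no fixed unit that can be compared between arrays for one probe set but not between probe sets. The median of the 8740 mean signals was 113. Of the 15 probe sets, 7 lay above it and 8 below, and 6 were among the brightest 41%, a set bounded by a mean signal of 175. The arrays of one population differed by 1.02-fold to 1.34-fold (median 1.16) in the 7 brighter probe sets and by 1.16-fold to 7.55-fold (median 2.27) in the 8 dimmer ones. Signals of single arrays were 96.6 to 19866 in the brighter probe sets and 0.636 to 167 in the dimmer ones.

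The NT array had the lowest ratios of 3′ to 5′ signal, and the populations differed in markers of cell types. The ratio of the 3′ to the 5′ probe set of *Gapdh*, a sign of how far along a transcript the labelled copy reaches, was 14.6 and 17.6 in GFP+ cells, 12.7 and 14.2 in GFP+/- cells and 5.45 in NT cells. For beta-actin it was 22.9 and 18.7 in GFP+ cells, 31.4 and 14.4 in GFP+/- cells and 10.9 in NT cells, so the GFP+/- arrays differed from each other more than the NT array did from the lower of them. The summed signal of 8 of 10 listed neuron markers was 26702 and 22528 in GFP+ cells, 17535 and 19062 in GFP+/- cells and 33619 in NT cells. The summed signal of 8 of 8 fibroblast markers was 6444 and 12948 in GFP+ cells, 31034 and 31822 in GFP+/- cells and 12519 in NT cells. Single markers disagreed on the NT array. *Col1a1*, *Col1a2*, *Fn1*, *Bgn* and *Postn* were highest in GFP+/- cells, whereas *Col3a1*, *Dcn* and *Lum* were highest in NT cells. *Col3a1* had 987 and 995 in GFP+/- cells and 1318 in NT cells, and *Lum* had 132 and 59.7 in GFP+/- cells and 265 in NT cells. *Ttr*, which choroid plexus expresses strongly, had 2961 and 5060 in GFP+ cells, 18147 and 17266 in GFP+/- cells and 3587 in NT cells. It made up nearly all of the summed signal of the 3 of 4 measured markers of ependyma and choroid plexus. The other 2 had other patterns. *Kl* had 37.2 and 89.4 in GFP+ cells, 75.8 and 45.9 in GFP+/- cells and 91.0 in NT cells. *Foxj1* had 112 and 91.6 in GFP+ cells, 90.6 and 108 in GFP+/- cells and 19.6 in NT cells, and was higher than in NT cells in both (adjusted p = 0.0341 and 0.0330, limma). Neuron markers also differed from each other, and *Map2*, *Nefl*, *Nefm* and *Syp* followed the order of their sum. *Mapt* was bright, with 12752 and 10426 in GFP+ cells, 7321 and 8967 in GFP+/- cells and 10041 in NT cells. *Gap43*, *Snap25* and the dim *Syt1* (7.0 to 25.3) overlapped between GFP+ and GFP+/- cells. Markers of microglia and macrophages (7 of 8 measured, 2 above the median) summed to 887 and 807 in GFP+ cells, 515 and 394 in GFP+/- cells and 701 in NT cells. Among them *Aif1* was lower in GFP+ than in GFP+/- cells, and *C1qb* and *Ptprc* overlapped. Sums on the 5 arrays were 10484 to 15438 for astrocytes, 357 to 482 for endothelial cells and 1200 to 1520 for the oligodendrocyte lineage. The part of RNA quality and of cell mixture in the results was not tested. Pituitary cells express *Trhr* and peptide hormones. Their 8 of 8 markers summed to 1271 and 1287 in GFP+ cells, 808 and 1136 in GFP+/- cells and 916 in NT cells, and 3 of them lay above the median signal. The brightest was *Cga*, with 762 and 634 in GFP+ cells, 352 and 575 in GFP+/- cells and 377 in NT cells. *Lhb* lay at 157 to 198 and *Pou1f1* at 0.9 to 4.3.

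**Figure D1:**
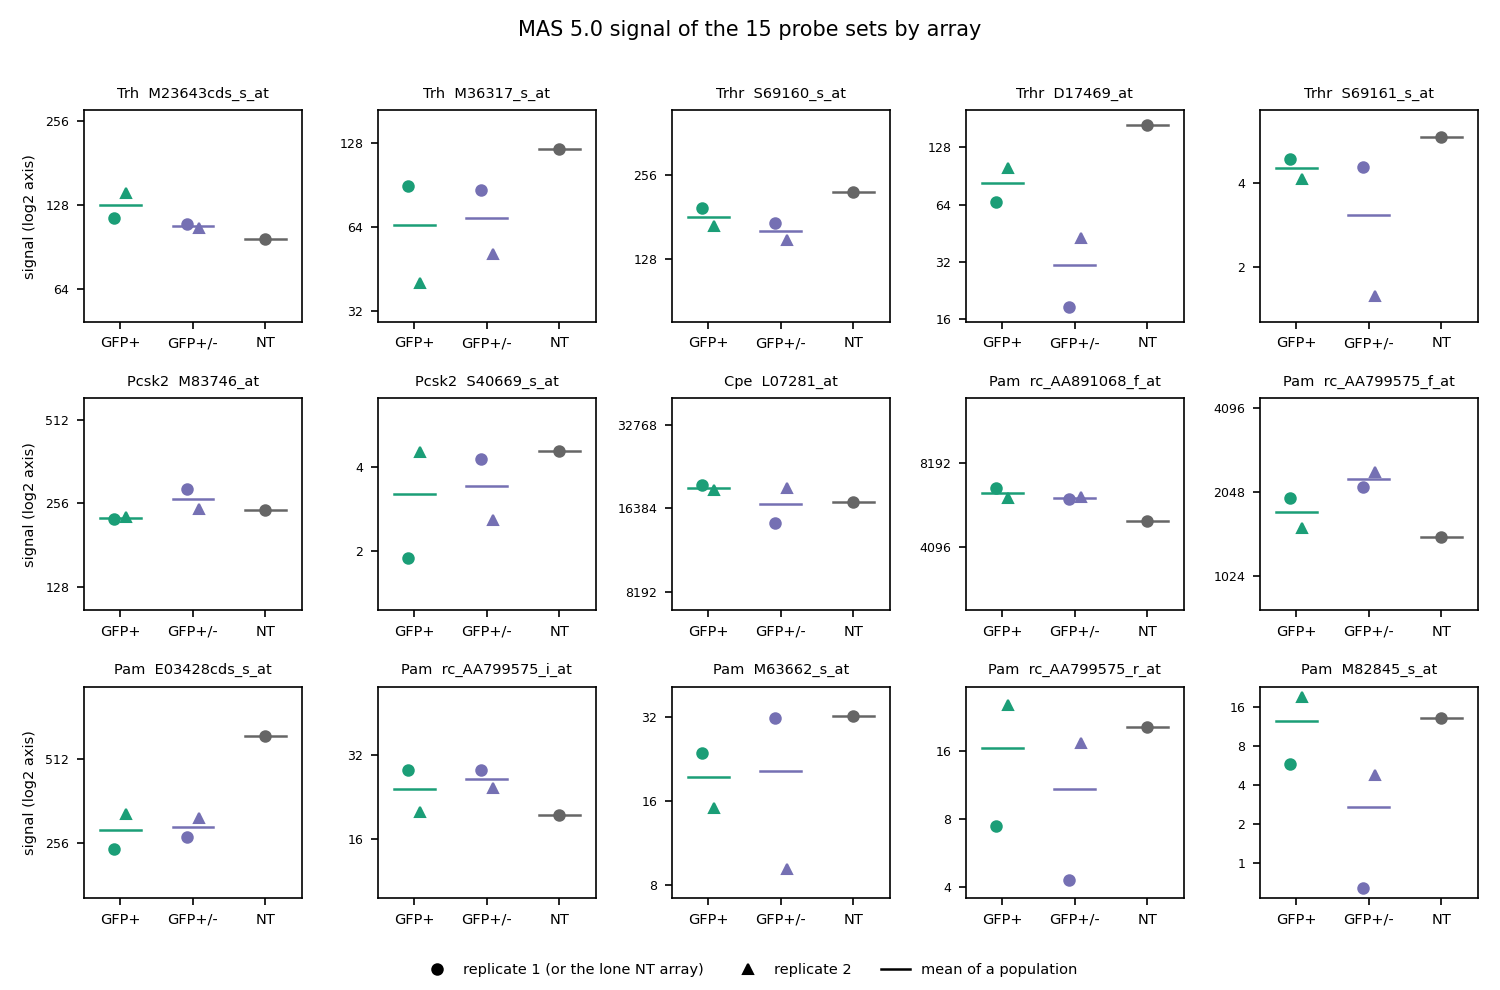
MAS 5.0 signal (vertical log2 axis, arbitrary brightness) of each of the 15 probe sets in GFP+, GFP+/- and NT cells. Points are arrays and short lines are population means. Each panel has its own scale and levels are to be compared within a panel; in *Trh* M23643cds_s_at both GFP+ arrays (115 and 141) lie above the GFP+/- and NT arrays, and in M36317_s_at the NT array (122) is the highest.

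The brighter *Trh* probe set lay near the median signal of the arrays in all 3 populations, GFP+ cells included. This probe set, M23643cds_s_at, had signals of 115 and 141 in GFP+ cells, 109 and 106 in GFP+/- cells and 96.6 in NT cells. In the signals as deposited, both GFP+ arrays lay above both GFP+/- arrays, and all 4 lay above the NT array. The mean signal ranked at percentile 50.2 of all probe sets. Averaged signals of GFP+ cells were 1.19 times those of GFP+/- cells and 1.32 times those of NT cells. With limma the log2 difference was 0.24 against GFP+/- cells (SE 0.29, adjusted p = 0.761) and 0.40 against NT cells (SE 0.36, adjusted p = 0.595), so neither passed the threshold of 0.05. The log2 difference from GFP+/- cells depended on the scaling of the arrays, and was 0.088 with quantile normalization and 0.088 with equal medians. The 95% interval of the fold against GFP+/- cells ran between 0.714 and 1.96, and against NT cells between 0.708 and 2.45. GFP+/- cells differed from NT cells by 0.15 on the log2 scale (SE 0.36, adjusted p = 0.860).

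The other *Trh* probe set, M36317_s_at, did not follow this order. Its signals were 89.5 and 40.2 in GFP+ cells, 86.8 and 51.0 in GFP+/- cells and 122 in NT cells. The GFP+ and GFP+/- arrays overlapped, replicate 1 of either population being the brighter array, and the NT array was the brightest of the 5. The log2 difference of GFP+ from GFP+/- cells was -0.15 (SE 0.53, adjusted p = 0.935), a value that changed sign without GFP+ replicate 2 (0.43) or without GFP+/- replicate 1 (0.23). Against NT cells it was -1.02 in GFP+ cells (SE 0.65, adjusted p = 0.425) and -0.87 in GFP+/- cells (SE 0.65, adjusted p = 0.499). Both probe sets carry the suffix by which the manufacturer marks probes that several transcripts may share.

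*Trhr*, the receptor gene, also had one probe set above the median and others below it. S69160_s_at had signals of 195 and 168 in GFP+ cells, 173 and 150 in GFP+/- cells and 223 in NT cells. The GFP+ and GFP+/- arrays overlapped and the NT array was the highest. The log2 difference of GFP+ cells was 0.17 from GFP+/- cells (SE 0.25, adjusted p = 0.811) and -0.30 from NT cells (SE 0.30, adjusted p = 0.638).

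The dimmer D17469_at separated the populations more widely. Its signals were 66.3 and 99.7 in GFP+ cells, 18.5 and 42.8 in GFP+/- cells and 167 in NT cells. All GFP+ arrays lay above all GFP+/- arrays and below the NT array. The ratio of averaged signals was 2.71 for GFP+ over GFP+/- cells, 0.496 for GFP+ over NT cells and 0.183 for GFP+/- over NT cells, each past the 2-fold limit that the study's methods set. The log2 difference of GFP+ from GFP+/- cells was 1.53 (SE 0.54, unadjusted p = 0.0311, adjusted p = 0.304), with a 95% interval of 1.15-fold to 7.28-fold. Without GFP+/- replicate 1 the difference was 0.92, and without GFP+/- replicate 2 it was 2.14. The log2 difference of GFP+/- from NT cells was -2.57 (SE 0.66, adjusted p = 0.0707), the lowest adjusted p of the 15 probe sets in the 3 comparisons, and it was -1.97 without GFP+/- replicate 1 and -3.18 without GFP+/- replicate 2. Neither passed. The remaining *Trhr* probe set, S69161_s_at, read 1.57 to 5.86 on the 5 arrays, with overlapping GFP+ and GFP+/- arrays.

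*Pcsk2*, whose convertase acts late in the maturation of the TRH precursor, had near-equal signals in all 3 populations. M83746_at had 224 and 229 in GFP+ cells, 288 and 244 in GFP+/- cells and 242 in NT cells. The GFP+ arrays were the lowest of the 5, below both GFP+/- arrays and the NT array. The log2 difference of GFP+ cells was -0.22 from GFP+/- cells (SE 0.22, adjusted p = 0.701; 95% interval 0.589-fold to 1.24-fold) and -0.09 from NT cells (SE 0.27, adjusted p = 0.887). The dim S40669_s_at read 1.88 to 4.58 and its GFP+ and GFP+/- arrays overlapped.

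*Cpe* gave one of the brightest signals of the arrays, at percentile 99.5 by mean signal. L07281_at, the only probe set of the gene, had 19866 and 19035 in GFP+ cells, 14465 and 19388 in GFP+/- cells and 17342 in NT cells. GFP+/- replicate 1 was the lowest array and the other 4 lay between 17342 and 19866. The log2 difference of GFP+ cells was 0.22 from GFP+/- cells (SE 0.24, adjusted p = 0.744; 95% interval 0.765-fold to 1.76-fold) and 0.17 from NT cells (SE 0.30, adjusted p = 0.809). The sign of the last value was not stable, since quantile normalization gave -0.27.

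*Pam* had 7 probe sets, whose signals spanned a wide range, and these did not agree on an order of the populations. The brightest, rc_AA891068_f_at, had 6676 and 6136 in GFP+ cells, 6079 and 6212 in GFP+/- cells and 5084 in NT cells. Its GFP+ and GFP+/- arrays overlapped and all 4 lay above the NT array, at log2 differences from NT cells of 0.33 in GFP+ (SE 0.21, adjusted p = 0.424) and 0.27 in GFP+/- cells (SE 0.21, adjusted p = 0.514). Between GFP+ and GFP+/- cells the difference was 0.06 (SE 0.17, adjusted p = 0.919).

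The next brightest, rc_AA799575_f_at, had 1958 and 1528 in GFP+ cells, 2146 and 2419 in GFP+/- cells and 1419 in NT cells. Here both GFP+ arrays lay below both GFP+/- arrays and above the NT array. The log2 difference was -0.40 for GFP+ against GFP+/- cells (SE 0.19, adjusted p = 0.430) and 0.68 for GFP+/- against NT cells (SE 0.23, adjusted p = 0.142). These 2 probe sets belong to a kind that the manufacturer marks as a sequence family, which may pick up other transcripts.

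E03428cds_s_at ran the other way against NT cells. It had 243 and 326 in GFP+ cells, 268 and 315 in GFP+/- cells and 618 in NT cells. The 4 transfected arrays overlapped and the NT array lay far above them. The log2 difference from NT cells was -1.14 in GFP+ cells (SE 0.29, adjusted p = 0.0721) and -1.09 in GFP+/- cells (SE 0.29, adjusted p = 0.0767). When only the brightest 41% of probe sets were tested, the same differences had adjusted p = 0.0165 and adjusted p = 0.0187, and this was the only one of the 6 probe sets tested there that passed in either comparison (31.6% of the bright probe sets passed in GFP+ against NT cells and 32.4% in GFP+/- against NT cells). Between GFP+ and GFP+/- cells the difference was -0.05 (SE 0.23, adjusted p = 0.951).

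The other 4 *Pam* probe sets were dim. Signals were 19.4 to 28.4 for rc_AA799575_i_at, 9.09 to 32.3 for M63662_s_at and 4.27 to 25.5 for rc_AA799575_r_at, and in each of these the GFP+ and GFP+/- arrays overlapped. M82845_s_at had 5.83 and 19.3 in GFP+ cells, 0.636 and 4.80 in GFP+/- cells and 13.3 in NT cells. Its ratio of averaged signals, 4.63 for GFP+ over GFP+/- cells, was the highest of the 15 but joined arrays of one population that differed by up to 7.55-fold, and its adjusted p was 0.366.

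Counted together, none of the 15 probe sets passed the adjusted threshold in any comparison. In GFP+ against GFP+/- cells 0.0% of all probe sets passed (unadjusted p under 0.05 in 1 of the 15, against 13.9% of all). In GFP+ against NT cells 8.44% of all probe sets passed (unadjusted, 1 of the 15 against 24.3%), and in GFP+/- against NT cells 9.23% (unadjusted, 3 of the 15 against 24.9%). The ratio of averaged signals was over 2-fold in 2 of 15 for GFP+ against GFP+/- cells (*Trhr* D17469_at and *Pam* M82845_s_at, both higher in GFP+), where 13.1% of all probe sets were and 8.89% in that direction. It was over 2-fold in 2 of 15 for GFP+ against NT cells, where 26.8% were, and in 3 of 15 for GFP+/- against NT cells, where 27.3% were. All of these were lower than in NT cells, a direction in which 12.3% and 15.2% of all probe sets passed the limit.

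GFP+ arrays lay wholly above GFP+/- arrays in 3 probe sets and wholly below in 2, where 30.4% and 15.4% of all probe sets did. The median log2 difference of the 15 was 0.16 in GFP+ against GFP+/- cells, beside 0.13 over all probe sets. Scaling the arrays to equal medians moved that background to -0.03. For GFP+ against NT cells the medians were -0.32 and 0.06, and for GFP+/- against NT cells -0.47 and -0.09. The GFP+ arrays lay above the NT array in 5 of the 15 and below it in 8 (41.5% and 35.9% of all), and the GFP+/- arrays in 5 and 9 (35.2% and 44.0%).

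**Figure D2:**
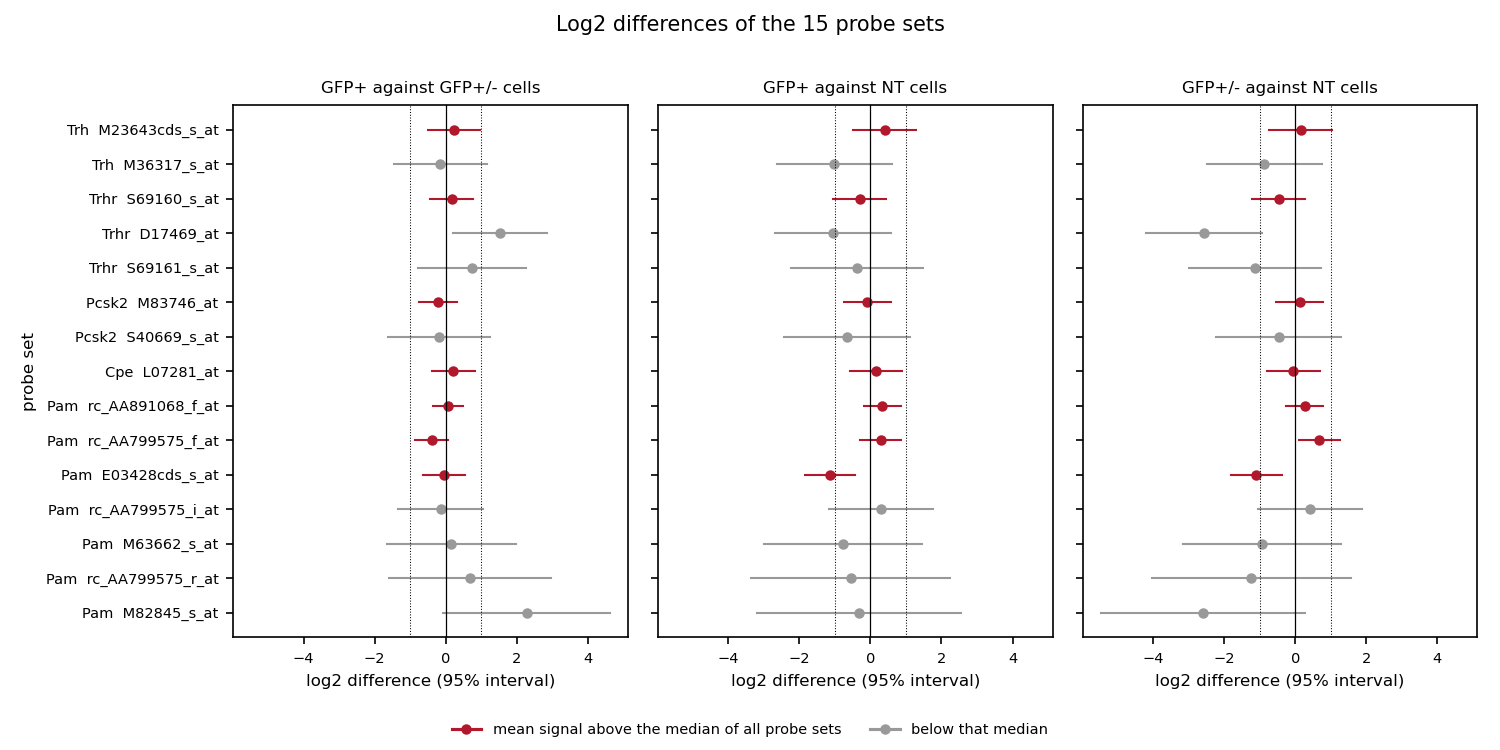
Log2 difference (horizontal axis, points) with its 95% interval (lines) of each of the 15 probe sets in 3 comparisons, from limma; dotted lines mark 2-fold. Intervals of the probe sets above the median signal are narrow and those of the dim ones wide, and the *Pam* E03428cds_s_at points lie at -1.14 and -1.09 in the 2 comparisons with NT cells.

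Other genes of the pathway were read from lists, each gene from its brightest probe set. In GFP+ against GFP+/- cells no gene of any list passed, as none of 4736 genes did (0.0%). In GFP+ against NT cells 4.31% of all genes passed as higher and 4.1% as lower, and in GFP+/- against NT cells 4.54% and 5.32%. The calls against NT cells rest on 1 NT array, and none of the 20 calls on list genes held in all fits that left out an array. Without any one GFP+ or GFP+/- array, 1 of the 8740 probe sets passed in GFP+ against NT cells. When only the brightest 41% were tested, 34 of the 55 list genes were among them, and against NT cells 4 passed as higher and 6 as lower in GFP+ cells, and 4 and 12 in GFP+/- cells, where 31.6% and 32.4% of the bright probe sets passed in either direction.

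Among proteins of the dense core granule, where the peptide is packed, 9 of 11 listed genes were measured. Against NT cells 2 fell in GFP+ cells and 3 in GFP+/- cells, and none rose. *Scg2*, which encodes the granin secretogranin II, had 396 and 243 in GFP+ cells, 184 and 260 in GFP+/- cells and 1601 in NT cells, where both transfected populations fell (log2 -2.37, adjusted p = 0.0247, and -2.87, adjusted p = 0.0167). *Cadps*, which primes granules for release, had 1058 and 764 in GFP+ cells, 487 and 501 in GFP+/- cells and 2079 in NT cells (log2 -1.21, adjusted p = 0.0468, and -2.07, adjusted p = 0.0149, against NT cells). *Chgb*, another granin, had 1783 and 1101 in GFP+ cells, 765 and 907 in GFP+/- cells and 2345 in NT cells, and fell in GFP+/- cells (log2 -1.49, adjusted p = 0.0479).

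Of the 9 granule genes, 5 had both GFP+ arrays above both GFP+/- arrays (30.2% of all genes did), and the median log2 difference was 0.44, beside 0.11 over all genes. By the signals as deposited, these 5 were *Chgb*, *Scg3*, *Vgf*, *Ptprn* and *Cadps*. The median signal was higher on the GFP+ arrays (114 and 116) than on the GFP+/- arrays (102 and 104). *Scg3*, a granin that binds other granins to the granule membrane, had 5125 and 4858 in GFP+ cells, 3855 and 3496 in GFP+/- cells and 5554 in NT cells. *Ptprn*, a granule membrane protein, had 599 and 534 in GFP+ cells, 392 and 333 in GFP+/- cells and 505 in NT cells. *Vgf*, a granin-like precursor, had 449 and 594 in GFP+ cells, 424 and 411 in GFP+/- cells and 450 in NT cells. None of these differences between GFP+ and GFP+/- cells passed (adjusted p = 0.337 for *Scg3* and 0.257 for *Ptprn*).

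*Scg5*, the chaperone of the convertase that *Pcsk2* encodes, had 759 and 453 in GFP+ cells, 575 and 585 in GFP+/- cells and 788 in NT cells. Its dimmer probe set, M63901_g_at, had 154 and 102 in GFP+ cells, 72.6 and 69.6 in GFP+/- cells and 459 in NT cells, and fell in both populations against NT cells (log2 -1.87, adjusted p = 0.0452, and -2.69, adjusted p = 0.0199). The brighter one did not pass (log2 -0.43, adjusted p = 0.524, and -0.44, adjusted p = 0.506). *Ptprn2* (31.6 to 48) and *Cadps2* (402 to 709) did not pass in any comparison. *Chga* and *Pcsk1n* have no probe set under their names.

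Of the other convertases, carboxypeptidases and the cyclase, 8 of 11 were measured, and 2 fell against NT cells in either transfected population. *Qpct*, which closes the pyroglutamate of TRH, had 43.4 and 71.7 in GFP+ cells, 56.4 and 42.0 in GFP+/- cells and 361 in NT cells, so the NT array was far above the other 4 (log2 -2.69, adjusted p = 0.0353, and -2.89, adjusted p = 0.0285). *Ctsl*, a protease of lysosomes that can also cut peptide precursors in granules, had 766 and 726 in GFP+ cells, 1050 and 947 in GFP+/- cells and 1928 in NT cells (log2 -1.37, adjusted p = 0.0200, and -0.95, adjusted p = 0.0418). The other *Ctsl* probe set, S85184_g_at (517 to 919), did not pass against NT cells (log2 -0.26, limma adjusted p = 0.572, in GFP+ and -0.69, 0.124, in GFP+/- cells). It gave the opposite sign for GFP+ against GFP+/- cells (0.43, beside -0.42 for the brighter one), and neither passed there.

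*Furin*, the convertase of the constitutive pathway, had 553 and 585 in GFP+ cells, 591 and 952 in GFP+/- cells and 398 in NT cells. Its dimmer probe set, X55660_at, had 249 and 284 in GFP+ cells, 315 and 250 in GFP+/- cells and 65.7 in NT cells, and rose in both transfected populations (log2 2.02, adjusted p = 0.0215, and 2.09, adjusted p = 0.0198). The brighter one did not pass against NT cells over all probe sets (log2 0.51, adjusted p = 0.413, and 0.91, adjusted p = 0.150). Among the brightest 41% the brighter one passed in GFP+/- cells (limma adjusted p = 0.0458) but not in GFP+ cells (0.243). *Cpd*, a carboxypeptidase of the trans-Golgi, had 777 and 331 in GFP+ cells, 580 and 404 in GFP+/- cells and 140 in NT cells. It did not pass against NT cells over all probe sets (log2 1.86, adjusted p = 0.0945, and 1.79, adjusted p = 0.102) and did among the brightest 41% (adjusted p = 0.00981 and 0.0108). *Pcsk7*, another convertase, lay at 173 to 271.

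**Figure D3:**
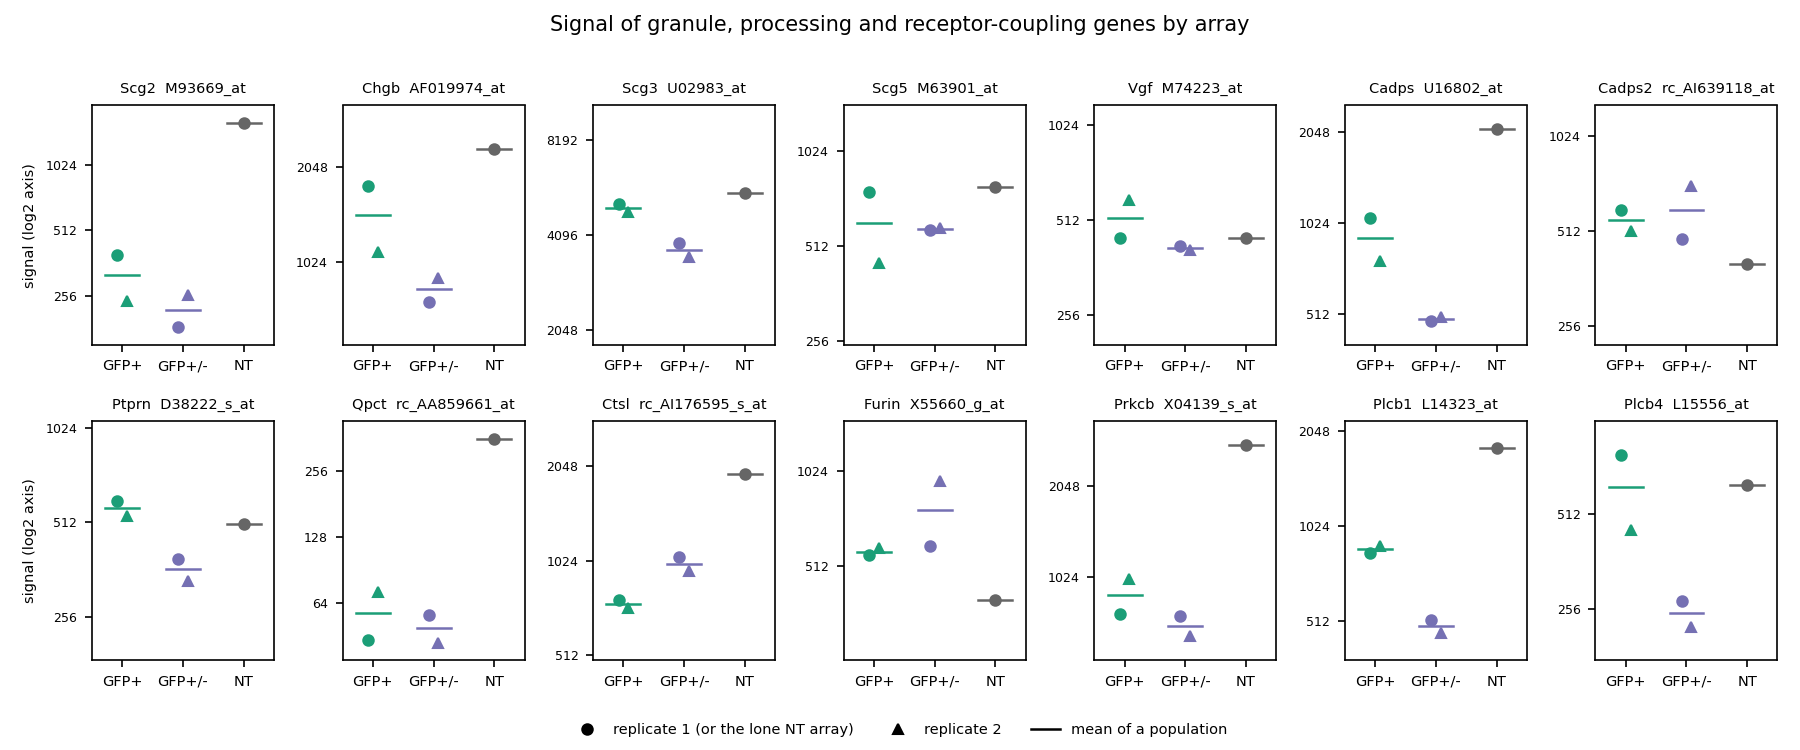
MAS 5.0 signal (vertical log2 axis, arbitrary brightness) of 14 granule, processing and receptor-coupling genes in GFP+, GFP+/- and NT cells. Points are arrays and lines population means; *Scg2*, *Cadps*, *Qpct*, *Ctsl*, *Prkcb* and *Plcb1* are highest on the NT array, and *Cadps*, *Ptprn*, *Scg3* and *Plcb1* have both GFP+ arrays above both GFP+/- arrays.

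Downstream of the receptor, 6 of 8 listed coupling genes were measured, and 2 fell against NT cells in either transfected population. *Plcb1*, a phospholipase C that Gq activates, had 844 and 885 in GFP+ cells, 515 and 468 in GFP+/- cells and 1809 in NT cells (log2 -1.07, adjusted p = 0.0349, and -1.88, adjusted p = 0.0111). *Prkcb*, a protein kinase C, had 778 and 1011 in GFP+ cells, 765 and 653 in GFP+/- cells and 2803 in NT cells (log2 -1.66, adjusted p = 0.0211, and -1.99, adjusted p = 0.0150). *Plcb4*, a further phospholipase C, had 794 and 458 in GFP+ cells, 273 and 225 in GFP+/- cells and 633 in NT cells. Over all probe sets its difference between GFP+ and GFP+/- cells was not past the threshold (log2 1.29, SE 0.30, adjusted p = 0.193), but it passed when only the brightest 41% were tested (adjusted p = 0.0291). Its dimmer probe set, AF027571_s_at, had the opposite sign, with 16.5 and 12.2 in GFP+ cells, 16.9 and 32.0 in GFP+/- cells and 12.3 in NT cells (log2 -0.72, SE 0.56, adjusted p = 0.624, against GFP+/- cells). *Plcb3* lay at 77.5 to 115. A dimmer *Plcb1* probe set, L14322exon_at, gave a positive log2 difference of GFP+ from NT cells (0.38, adjusted p = 0.772).

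The 3 of 4 measured peptidases that can degrade TRH did not pass in any comparison. *Trhde*, the pyroglutamyl peptidase that is selective for TRH, was dim, with 12.1 and 13.9 in GFP+ cells, 11.6 and 24.2 in GFP+/- cells and 17.5 in NT cells. *Prep*, a prolyl peptidase, had 453 and 298 in GFP+ cells, 421 and 500 in GFP+/- cells and 540 in NT cells. *Dpp4* read 20.6 to 59.8.

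Of the known regulators of *Trh*, 11 of 13 were measured, and the Krüppel-like factors among them had been picked by the study on these same arrays, so their values are not independent evidence. *Klf4* had 749 and 581 in GFP+ cells, 176 and 115 in GFP+/- cells and 154 in NT cells, and rose in GFP+ against NT cells (log2 2.10, adjusted p = 0.0275). Its dimmer probe set, L26292_at, had 603 and 423 in GFP+ cells, 171 and 114 in GFP+/- cells and 194 in NT cells. That probe set did not pass in GFP+ against NT cells over all probe sets (log2 1.38, limma adjusted p = 0.0861). *Klf10* had 873 and 777 in GFP+ cells, 291 and 272 in GFP+/- cells and 675 in NT cells, and fell in GFP+/- against NT cells (log2 -1.26, adjusted p = 0.0276). Against GFP+/- cells the log2 differences of GFP+ cells were 2.21 for *Klf4* and 1.55 for *Klf10*, both at adjusted p = 0.121. Among the brightest 41%, *Klf4*, *Klf10* and *Plcb4* were the only 3 of 34 list genes that passed in that comparison, where 2.23% of bright probe sets passed as higher.

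*Pou3f2*, a factor needed for hypothalamic neuroendocrine neurons, had 494 and 578 in GFP+ cells, 577 and 856 in GFP+/- cells and 226 in NT cells, and rose in GFP+/- against NT cells (log2 1.64, adjusted p = 0.0320). *Ntrk2*, the receptor of BDNF, had 691 and 526 in GFP+ cells, 395 and 337 in GFP+/- cells and 1011 in NT cells, and fell in GFP+/- cells (log2 -1.47, adjusted p = 0.0292). The dim *Ntrk2* probe set M55293_at (34.4 to 58.5) did not fall there (log2 -0.05, limma adjusted p = 0.974). For GFP+ against GFP+/- cells it had the opposite sign (-0.31, beside 0.72 for the brighter one), and neither passed. *Mc4r*, the melanocortin receptor through which *Trh* neurons sense feeding signals, was dim, with 40.0 and 22.7 in GFP+ cells, 11.0 and 11.9 in GFP+/- cells and 110 in NT cells, and fell in GFP+/- cells (log2 -3.27, adjusted p = 0.0341). *Thra*, a thyroid hormone receptor, gave the brightest signals of the list (2909 to 4136). Its 3 probe sets disagreed. The brightest did not pass, X12744_at rose in GFP+ against NT cells (log2 1.30, adjusted p = 0.0384), and M31174_g_at had the opposite sign without passing (log2 -1.66, adjusted p = 0.104, in GFP+ and -1.91, adjusted p = 0.0726, in GFP+/- cells).

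Of other peptide precursors that these enzymes process, 18 of 19 were measured. Over all probe sets only *Pomc* passed, with 257 and 198 in GFP+ cells, 269 and 303 in GFP+/- cells and 84.3 in NT cells, and rose in both against NT cells (log2 1.42, adjusted p = 0.0497, and 1.76, adjusted p = 0.0283). The GFP+ call was lost with quantile normalization (adjusted p = 0.0556), equal medians (0.0556) and 16 added to each signal (0.0574). Among the brightest 41%, *Pmch*, the precursor of melanin-concentrating hormone, also passed as lower than in NT cells (log2 -1.55, adjusted p = 0.00897, in GFP+ and -1.68, adjusted p = 0.00569, in GFP+/- cells). It had 266 and 348 in GFP+ cells, 373 and 208 in GFP+/- cells and 893 in NT cells. *Tac1* and *Npy*, the neuropeptide Y precursor, passed there as lower in GFP+/- than in NT cells (adjusted p = 0.0309 and 0.0292). *Npy* had 390 and 294 in GFP+ cells, 185 and 187 in GFP+/- cells and 373 in NT cells, a signal 0.499 times that of NT cells in GFP+/- cells. *Pmch* and *Npy* fall outside the rule for named genes and were chosen after their values were seen. *Sst*, the somatostatin precursor, had 1619 and 1302 in GFP+ cells, 1482 and 1475 in GFP+/- cells and 1088 in NT cells. *Tac1*, the substance P precursor, had 2695 and 1588 in GFP+ cells, 1116 and 1184 in GFP+/- cells and 2367 in NT cells. *Pdyn* and *Ghrh* lay at 1208 to 1943 and 508 to 680. The list's median log2 difference was 0.10 in each comparison.

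The probe sets whose pattern over the 5 arrays was nearest to each gene were found by the root mean square difference of log2 signals after centring, among 2948 to 2951 bright probe sets with 1 gene. For *Trh* these were *Igfals* (0.042), *Pigl* (0.050) and *Dnajb1* (0.051), and 44 probe sets lay within 0.1. For *Trhr* they were *Hadhb* (0.046), *Ppp1cc* (0.048) and *Cpsf3* (0.051), for *Pcsk2* *Cox4i1* (0.050), *Col26a1* (0.056) and *Dhrs7b* (0.057), for *Cpe* *Atp4a* (0.025), *Inha* (0.040) and *Wdr31* (0.044), and for *Pam* *Zswim7* (0.025), *Acp2* (0.034) and *Stambp* (0.034). The measure is a description over 5 arrays of 3 populations.

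**Figure D4:**
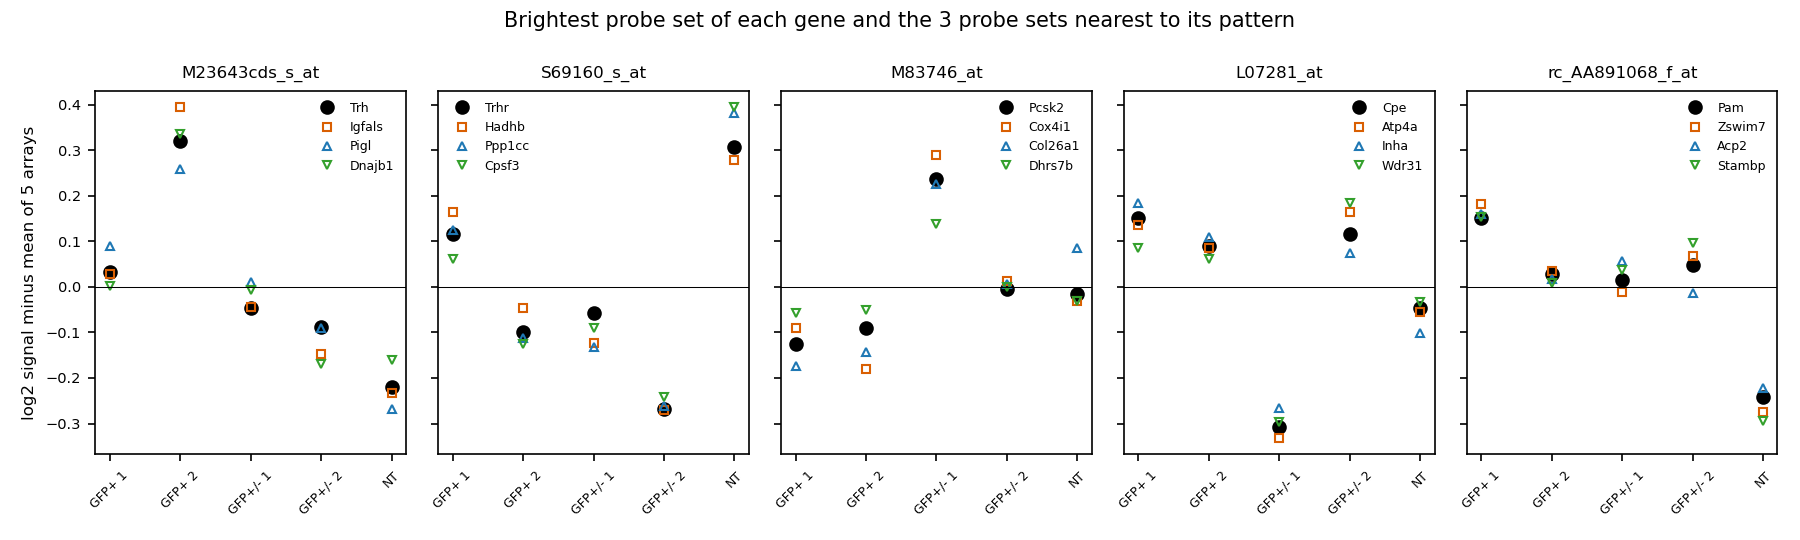
Log2 signal minus its mean over 5 arrays (vertical axis, log2 units) for the brightest probe set of *Trh*, *Trhr*, *Pcsk2*, *Cpe* and *Pam* (filled circles) and the 3 nearest probe sets (open symbols) on the GFP+, GFP+/- and NT arrays. All points lie within 0.4 of the mean, and *Trh* is highest on GFP+ replicate 2 and lowest on the NT array.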

How the data were processed

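The authors hybridized RNA of GFP+, GFP+/- and NT cells to Affymetrix rat genome U34 arrays (chip A) and deposited MAS 5.0 signals, a linear intensity per probe set, scaled per array. The study's methods name another scaling target than the trimmed mean of the deposited signals, so the scale of the values is that of the deposit. Of 8799 probe sets, 59 controls were left out. Signals under 1 were set to 1 before log2. Populations were compared with limma 3.58.1 in R 4.3.3 (lmFit, eBayes with an intensity trend), as a single model with a mean for each population over the 5 arrays, with Benjamini-Hochberg adjustment over 8740 probe sets and a threshold of 0.05. Intervals are unadjusted. The lone NT array contributes nothing to the residual variance, so its spread was taken to equal that of the other populations. The labels call the 2 arrays of a population biological replicates, whereas the methods describe aliquots of one pooled RNA, so p-values measure only the spread between arrays. An exact two-sided permutation test of 2 against 2 arrays cannot go below 0.333. All value columns were mapped to a population.

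The trimmed mean was 500.0 on each array, so overall RNA strength cannot be compared, and medians were 102 to 116. Arrays have no read depth, and their number limits the precision. Gene names came from the platform annotation (1 gene for 7006 probe sets) and RefSeq GRCr8, which also gave the promoters. A gene of a list was read from its brightest probe set. Named genes are all member probe sets, the 4 brightest of each list, list genes past the threshold and all granule genes. Members and lists were chosen with earlier results of these data known.

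Alternatives were quantile normalization, equal medians, 16 added to each signal, a replicate block, a fit of the 4 GFP+ and GFP+/- arrays alone, the brightest 41%, no intensity trend, and each array left out in turn. The brightest 41% were fitted anew by themselves, so the estimate of the spread changed as well as the number of tests. The steps were tested on simulated data. Detection calls and RT-PCR were not used here. Python 3.11.15 (pandas 2.3.3, numpy 2.4.6) made the tables and matplotlib 3.10.9 the plots.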

Additional observations from a re-analysis of the deposited data

How the results depend on the processing

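None of the 15 probe sets passed the threshold under any alternative except among the brightest 41%, where 1 passed in GFP+ against NT cells and 1 in GFP+/- against NT cells. Over all probe sets, the brightest 41% gave 144 calls for GFP+ against GFP+/- cells instead of 0 and 1133 for GFP+ against NT cells instead of 738, and a prior without a trend gave 2 in each comparison with NT cells. Leaving out an array gave 1 call for GFP+ against NT cells and 1 to 333 for GFP+/- against NT cells instead of 807. The number of probe sets over 2-fold was 1 with 16 added and 0 among the brightest 41% for GFP+ against GFP+/- cells (2 to 3 with an array left out), 1 and 1 for GFP+ against NT cells (2 to 5), and 1 among the brightest 41% for GFP+/- against NT cells (3 to 5). Single log2 differences were followed for 9 of the 15 probe sets, those above the median with *Trh* M36317_s_at and *Trhr* D17469_at, and not for the 6 others, all dim. Of the 9, those that changed sign were *Trh* M36317_s_at in GFP+ against GFP+/- cells (-0.73 to 0.43 with an array left out), *Cpe* in GFP+ against NT cells (-0.27 with quantile normalization) and in GFP+/- against NT cells (0.064 with equal medians, -0.26 to 0.16 with an array left out), and in GFP+ against GFP+/- cells *Pam* rc_AA891068_f_at (-0.098 with equal medians, -0.0021 to 0.12) and E03428cds_s_at (-0.26 to 0.16). The cause of these shifts was not tested. Of 20 calls on list genes, quantile normalization kept 18, equal medians 17, 16 added 19 and a prior without a trend 0. The calls lost were *Pomc* in GFP+ cells under the first 3, *Chgb* in GFP+/- cells under the first 2 and *Ctsl* in GFP+/- cells with equal medians. Without 1 array, 16 were lost every time and 4 were kept at least once. With the replicate number as a block, 2 probe sets and 0 of the 15 passed in GFP+ against GFP+/- cells. The deviations of same-numbered arrays correlated at 0.063 over all probe sets and 0.20 over the brightest 41%, but with only 2 pairs and no source that ties the numbers to a shared preparation, the arrays were taken to share only a number. Signal limits 8 of the 15 probe sets, which lay below the median and in which arrays of one population differed by up to 7.55-fold.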
